A study of Mus musculus with 11 samples.

Results

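The epidermal differentiation complex is a cluster of genes on mouse chromosome 3 that was examined here for open chromatin in sorted cells of the esophagus. It was taken as all protein-coding genes from S100a1 to S100a11 in the GRCm38.p6 RefSeq gene table, chr3:90511034-93526288, a span of 3.02 Mb. This rule gave 69 of 21627 genes. The members were 14 S100 genes, 14 Sprr genes, 21 Lce genes, 7 fused S100 genes (Crnn, Flg2, Flg, Hrnr, Rptn, Tchh and Tchhl1), 8 other envelope or neighboring genes (Lor, Prr9, Lelp1, Ivl, Smcp, Kprp, 2310050C09Rik and Crct1), 2 Pglyrp genes and Tdpoz8, Gm36323 and Gm35185. The intervals called open in 11 libraries were merged where they overlapped by at least 1 bp, and 223 of the 124941 merged regions fell in the span. A region is called occupied in a library if that library has an interval in it.

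In stratified epithelia, cells leave the basal layer, stop dividing and replace their membrane with a cornified envelope, a shell of cross-linked proteins. Loricrin, involucrin and the small proline-rich (Sprr) and late cornified envelope (Lce) proteins are joined into this shell by transglutaminases. Filaggrin, one of the fused S100 proteins, bundles keratin filaments. The S100 genes at both ends encode small calcium-binding proteins, among them S100a8 and S100a9, which form the antimicrobial heterodimer calprotectin. The esophagus is lined by such an epithelium, and AP-1, a dimer of Fos and Jun family factors, is a known activator of several genes of the complex.

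ATAC-seq, in which a transposase inserts adapters into accessible DNA, was run on 4 groups of libraries. WT (3 libraries) came from esophagus of wild type CD1 mice, sorted for low EpCAM, an epithelial adhesion protein. SmoM2 (3 libraries) came from Krt5-SmoM2 mice, again of strain CD1, with the gate set on high EpCAM. The SmoM2 allele encodes constitutively active Smoothened, the receptor component that turns on Hedgehog signaling. Krt5 marks the basal layer, so expression is directed to Krt5-positive cells. SmoM2-Sox9cKO (3 libraries) had the genotype Krt5-SmoM2-Sox9fl/fl and was also sorted for high EpCAM. Sox9 is a transcription factor of many progenitor cells, and the strain of this group is not named in the labels. Embryo (2 libraries) was E13 esophagus carrying Krt8YFP, gated for YFP, again with no strain named. The other 9 libraries are called adult here, although the labels name no age for them. Whether libraries of a group stem from different mice is not in the labels, and the p-values cover the spread between libraries only, which may be technical. Genotype and EpCAM gate cannot be told apart in comparisons with WT, nor can the Sox9 allele and a possible difference in strain. WT and SmoM2 carry a consecutive run of sample numbers, and SmoM2-Sox9cKO and Embryo a later one. The labels name no batch, but any difference between these sets cannot be told apart from the Sox9 allele either.

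The 9 adult lists occupied 66707 to 85278 regions, and the Embryo lists 24547 and 14045. No read totals accompany the lists, so sequencing depth is unknown. At Sox9 itself, WT had 11, 7 and 9 occupied regions, SmoM2 9, 10 and 11, and SmoM2-Sox9cKO 10, 12 and 9. The labels do not say which part of Sox9 is removed, so these counts do not check the deletion. The basal keratinocyte genes Krt5, Krt14 and Trp63 had occupied regions in all 9 adult libraries, with 2 to 4 at Krt5, 4 to 6 at Krt14 and 28 to 41 at Trp63. At Y-linked genes, intervals were found in 1 of 3 WT, 3 of 3 SmoM2 and 2 of 3 SmoM2-Sox9cKO libraries.

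Promoter sequences are shown for the genes at which the results below turn, to let the copies be compared. They are the 250 bases before the start site in the GRCm38.p6 RefSeq promoter table, 5′ to 3′ on the gene's strand. On the + strand these are chr3:92215585-92215834 (Sprr2a1), chr3:92250397-92250646 (Sprr2a2), chr3:92338890-92339139 (Sprr2d), chr3:92364937-92365186 (Sprr2f), chr3:92385435-92385684 (Sprr2h) and chr3:92944236-92944485 (Lce3c). On the − strand they are chr3:92485882-92486131 (Sprr1a), chr3:92083143-92083392 (Lor) and chr3:92573736-92573985 (Ivl). The capitals mark AP-1 motif matches, TGANTCA, which reads the same on both strands. Sprr2a1 and Sprr2a2 had identical windows (300 of 300 bases, counting 50 bases after the start), so 1 sequence stands for both.
Sprr2a1 and Sprr2a2: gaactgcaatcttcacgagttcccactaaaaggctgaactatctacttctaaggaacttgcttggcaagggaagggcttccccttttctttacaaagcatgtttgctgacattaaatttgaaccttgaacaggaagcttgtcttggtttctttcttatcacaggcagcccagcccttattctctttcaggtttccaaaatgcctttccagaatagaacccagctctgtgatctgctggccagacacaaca
Sprr2d: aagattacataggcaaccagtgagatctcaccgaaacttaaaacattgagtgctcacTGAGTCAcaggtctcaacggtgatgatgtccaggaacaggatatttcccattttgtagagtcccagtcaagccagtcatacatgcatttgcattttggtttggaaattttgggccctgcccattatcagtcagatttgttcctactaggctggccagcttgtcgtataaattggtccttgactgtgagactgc
Sprr2f: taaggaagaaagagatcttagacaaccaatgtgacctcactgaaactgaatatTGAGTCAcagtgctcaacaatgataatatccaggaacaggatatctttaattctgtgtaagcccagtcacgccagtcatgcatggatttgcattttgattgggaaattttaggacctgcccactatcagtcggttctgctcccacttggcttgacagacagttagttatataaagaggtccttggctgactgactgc
Sprr2h: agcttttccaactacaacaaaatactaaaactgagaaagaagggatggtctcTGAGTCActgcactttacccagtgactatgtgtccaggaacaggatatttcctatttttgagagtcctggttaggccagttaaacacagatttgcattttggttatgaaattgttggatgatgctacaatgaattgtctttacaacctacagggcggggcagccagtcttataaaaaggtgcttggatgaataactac
Sprr1a: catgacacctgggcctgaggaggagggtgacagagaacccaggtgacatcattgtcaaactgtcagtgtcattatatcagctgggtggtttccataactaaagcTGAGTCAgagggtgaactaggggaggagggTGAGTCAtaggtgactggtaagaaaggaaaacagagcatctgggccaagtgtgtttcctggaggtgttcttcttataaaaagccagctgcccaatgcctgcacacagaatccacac
Lor: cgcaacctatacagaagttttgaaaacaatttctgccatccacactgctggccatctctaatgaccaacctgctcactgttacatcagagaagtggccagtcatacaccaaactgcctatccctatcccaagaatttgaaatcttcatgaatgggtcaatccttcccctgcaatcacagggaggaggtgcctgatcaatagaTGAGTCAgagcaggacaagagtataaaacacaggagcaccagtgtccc
Ivl: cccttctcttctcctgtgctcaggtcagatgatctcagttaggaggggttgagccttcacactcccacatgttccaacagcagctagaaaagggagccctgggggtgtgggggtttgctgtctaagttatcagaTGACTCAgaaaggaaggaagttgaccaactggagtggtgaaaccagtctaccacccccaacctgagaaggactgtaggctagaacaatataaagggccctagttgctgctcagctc
Lce3c: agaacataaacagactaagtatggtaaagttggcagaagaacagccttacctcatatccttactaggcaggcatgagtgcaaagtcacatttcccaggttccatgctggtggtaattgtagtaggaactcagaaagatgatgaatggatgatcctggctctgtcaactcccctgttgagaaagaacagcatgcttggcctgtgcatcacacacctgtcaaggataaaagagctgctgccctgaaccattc

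The Sprr2 promoters fell into 2 forms. Sprr2b, Sprr2d, Sprr2e, Sprr2f, Sprr2h, Sprr2i and Sprr2k each had TGAGTCA with its first base 193 to 198 bases before the start, whereas the windows of Sprr2a1, Sprr2a2 and Sprr2a3 had no AP-1 match. Aligned over 300 bases, the Sprr2d window was 89.1% identical to that of Sprr2e and 73.2% to that of Sprr2f, but 53.3% identical to that of Sprr2a1. The windows of Sprr2a1 and Sprr2a3 are offset by 28 bases and were identical at all 272 bases they share. Copies this alike can share or lose reads in alignment, so values of single Sprr2 copies are less certain than those of other members.

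RefSeq promoters were found for 62 of the 69 members, in 67 windows because some genes have several starts. AP-1 matches were present in 20 of the 67 windows (29.9%), compared with 1481 of 21044 promoters of all genes (7.04%). By family, 9 of 14 Sprr promoters, 5 of 7 fused S100 promoters, 3 of 6 promoters of other envelope genes, 3 of 16 S100 promoters and 0 of 20 Lce promoters had a match. The other motifs were searched on both strands: GRHL AACCNGGTT, KLF GGGNGTGG, C/EBP TTGCNNAA, SOX ACAATGG or ACAAAGG, GLI TGGGTGGTC, RUNX TGTGGTT, ETS CCGGAAGT, and AGATAAG for GATA factors. GATA matches were in 7.46% of the windows against 2.63% of all promoters, and KLF matches in 5.97% against 19.6%. SOX matches were in 4.48% against 8.2%, C/EBP in 8.96% against 10.3% and RUNX in 2.99% against 4.74%. No window had a GRHL, GLI or ETS match, which were in 0.257%, 0.181% and 5.2% of all promoters. A match describes letters only, and family members share ancestry, so the windows are not independent.

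**Figure D1:**
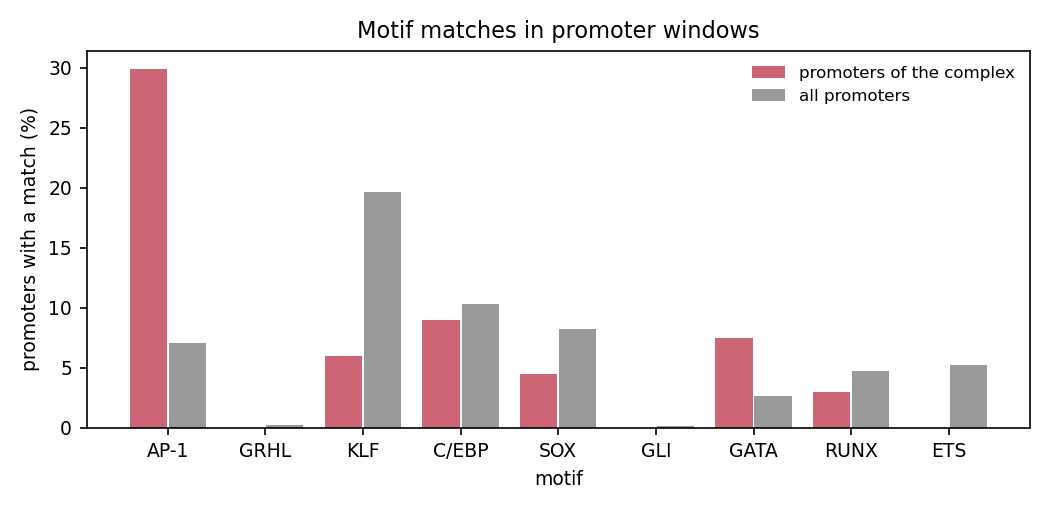
Share of 300 bp promoter windows (%, vertical axis) with a match to each motif (horizontal axis), for 67 windows of the complex and 21044 windows of all genes. AP-1 stands at 29.9% in the complex against 7.04% in all genes, and KLF is lower in the complex (5.97% against 19.6%).

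Open chromatin was spread unevenly over the complex. From S100a1 to Pglyrp4, 230.5 kb held 39 regions, and from Lelp1 to Sprr4, 357.7 kb held 53. In between lay 864.2 kb, from 91127655 to 91991809, without a region in any of the 11 libraries, where the members are the predicted genes Gm36323 and Gm35185. The 518.6 kb from Sprr4 to Lce1m held 46 regions, the 452.9 kb from Lce1m to Tchhl1 49 and the last 54.3 kb to S100a11 12. Of the 223 regions, 23.3% overlapped a gene body, against 56.5% of all regions of the genome, and 33.2% were occupied in all 9 adult libraries, against 35.6%.

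**Figure D2:**
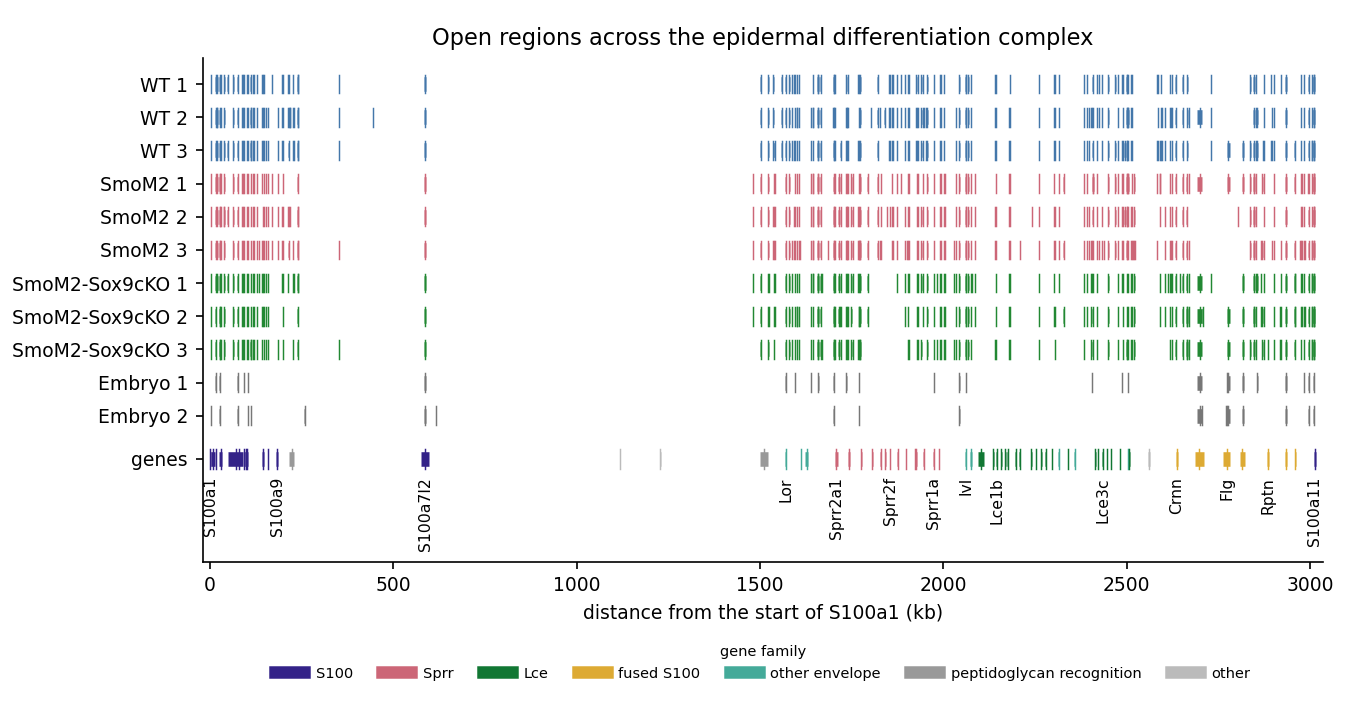
Occupied regions of the complex in each of the 11 libraries (rows) by distance from the start of S100a1 (kb), with the 69 genes colored by family in the lowest row. The gap of 864.2 kb is empty in all rows, and the Embryo rows hold 28 and 20 regions against 123 to 164 in the adult rows.

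The count of open regions over the whole complex did not differ between adult groups beyond what the test could show. Occupied regions numbered 124, 148 and 144 in WT, 131, 144 and 164 in SmoM2, and 142, 130 and 123 in SmoM2-Sox9cKO, so the ranges overlapped. Per 10000 occupied regions of each library this was 19.2 ± 0.501 in WT, 18.6 ± 1.41 in SmoM2 and 17.4 ± 0.278 in SmoM2-Sox9cKO (mean ± SD, n = 3 each). SmoM2 differed from WT by -0.585 (two-sided exact permutation p = 0.6) and SmoM2-Sox9cKO from SmoM2 by -1.13 (exact p = 0.4). SmoM2-Sox9cKO differed from WT by -1.71 with no overlap between the groups (exact p = 0.1, the smallest that 3 against 3 allows). This depended on the measure. Per 10000 covered bases, WT had 18.1, 18.3 and 18.2, SmoM2 19.1, 20 and 17.8, and SmoM2-Sox9cKO 17.5, 19.2 and 19.4. In that unit the groups overlapped, and both SmoM2 groups averaged above WT.

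Changes were counted by locus, that is, by the occupied regions nearest to a gene and within 100 kb of it. Of the 69 members, 58 had at least 1 region and 11 had none. The 46 that averaged 1 or more occupied regions over the adult libraries were tested with limma among 15470 loci of the genome. All changes are log2 changes of the occupied regions of a locus, scaled to the library's total, and a change means more or fewer open regions, not expression. In SmoM2 against WT, Sprr2a2 rose, Lor and Sprr2f fell, and 43 of 46 did not pass (1 of 46 higher against 5.18% of all loci, 2 of 46 lower against 5.73%). In SmoM2-Sox9cKO against SmoM2, 0 of 46 rose, against 0.401% of all loci. Sprr2d and Sprr2f fell, 2 of 46 against 0.433%. In SmoM2-Sox9cKO against WT, Sprr2a1 and Sprr4 rose, 2 of 46 against 3.96%, and Sprr2d, Sprr2f, Sprr2h and Tdpoz8 fell, 4 of 46 against 3.39%. At an unadjusted p under 0.05, 5 of 46 were higher and 6 lower in SmoM2 against WT, where 10.4% and 14.1% of all loci were. In SmoM2-Sox9cKO against SmoM2 4 were higher and 5 lower (6.72% and 4.92% of all loci), and against WT 5 and 11 (10% and 11.3%). The members' median change equalled that of all loci in each comparison, at -0.12, 0.06 and -0.06. Without scaling the median of all loci was 0 in each comparison. These medians are thus what the library totals give a locus with unchanged counts, and their match says little about the complex. The comparisons share samples and are not independent of each other.

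**Figure D3:**
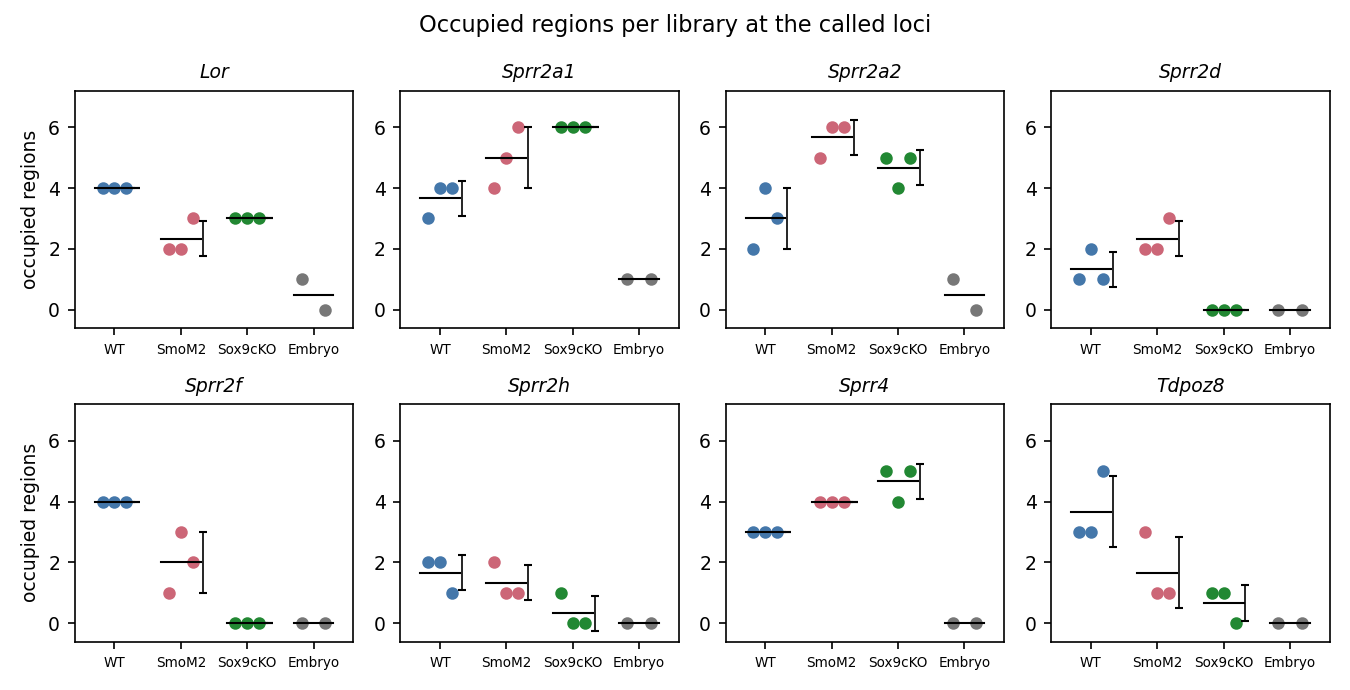
Occupied regions (vertical axis) per library at the 8 loci called in an adult comparison. Points are libraries, lines are group means, and bars are ± 1 SD where n = 3. Sprr2d and Sprr2f are at 0 in all 3 SmoM2-Sox9cKO and both Embryo libraries.

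The Sprr genes, whose proteins bridge other envelope proteins, held most of the calls, with 11 of them tested. In SmoM2 against WT 1 rose and 1 fell (5.18% and 5.73% of all loci). In SmoM2-Sox9cKO 0 rose and 2 fell against SmoM2 (0.401% and 0.433%), and 2 rose and 3 fell against WT (3.96% and 3.39%). Sprr2d had 1, 2 and 1 occupied regions in WT, 2, 2 and 3 in SmoM2, and was listed at 0 in all 3 SmoM2-Sox9cKO libraries. The drop passed against SmoM2 (adjusted p = 0.000787) and against WT (adjusted p = 0.00045), and the groups did not overlap. Sprr2f had 4 in each WT library, 1, 3 and 2 in SmoM2 and 0 in each SmoM2-Sox9cKO library. Sprr2f fell by 1.05 ± 0.27 (SE) on the log2 scale from WT to SmoM2 (adjusted p = 0.0369). That first step passed in 7 of 20 alternatives only. It was lost without any single WT library, SmoM2 replicate 1 or 3, or any single SmoM2-Sox9cKO library, which lend their spread to the fit (adjusted p from 0.051 to 0.103). At Sprr2f, SmoM2-Sox9cKO lay below SmoM2 (adjusted p = 0.013) and below WT (adjusted p = 0.000231), the latter in all 20 alternatives. Sprr2h had 2, 2 and 1, then 2, 1 and 1, then 1, 0 and 0, and fell by 1.61 ± 0.41 from WT to SmoM2-Sox9cKO (adjusted p = 0.0495), with an overlap at 1 region. The Sprr2h call passed in 7 of 19 alternatives and was lost without WT replicate 1 or 2, SmoM2 replicate 2 or 3, or SmoM2-Sox9cKO replicate 2 or 3 (adjusted p from 0.0706 to 0.147). Against SmoM2 the change of Sprr2h was -1.24 and did not pass (adjusted p = 0.29).

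These genes are neighbors. Between Sprr2b and Sprr2i, a stretch chosen after its values were seen, 11 regions at Sprr2d, Sprr2e, Sprr2f and Sprr2h lay in chr3:92331291-92394603 (63.3 kb). WT libraries occupied 7, 9 and 6 of them, SmoM2 libraries 5, 7 and 6, and SmoM2-Sox9cKO libraries 1, 0 and 0. The single region left was the Sprr2h promoter in SmoM2-Sox9cKO 1. The longest run without an occupied region between Sprr2a1 and Sprr4 was 80.5, 100.7 and 129.6 kb in SmoM2-Sox9cKO, compared with 30.5, 26.5 and 30.5 kb in SmoM2 and 46, 30.1 and 46 kb in WT. The intervals in the stretch were mostly weak in their own lists: by the authors' −log10 p-value, the region 6901 bp before Sprr2d at chr3:92331291-92332239 stood between percentiles 36.2 and 47.8 in WT and 8.62 and 52.7 in SmoM2. With only intervals of −log10 q of at least 5, SmoM2 libraries held 0, 3 and 4 regions of the stretch and SmoM2-Sox9cKO libraries 1, 0 and 0, so the groups then overlapped. Under that setting, and with lists cut to equal length, Sprr2f no longer passed between SmoM2-Sox9cKO and SmoM2 (adjusted p = 0.468 and 0.434). It also missed without SmoM2-Sox9cKO replicate 3 (adjusted p = 0.0543). With that −log10 q, and with lists of equal length, Sprr2d averaged under 1 occupied region and was not tested. It passed against both groups under the 18 other alternatives, so its calls were not checked in the settings where Sprr2f failed.

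Promoters in the stretch were occupied less widely in SmoM2-Sox9cKO, a description without a test. The Sprr2f promoter, printed above and covered by chr3:92364804-92365335, was occupied in 3 of 3 WT, 1 of 3 SmoM2 and 0 of 3 SmoM2-Sox9cKO libraries. That of Sprr2h was occupied in 3, 3 and 1, and that of Sprr2d in 1, 1 and 0. All 3 windows carry TGAGTCA, and so do those of Sprr2b, Sprr2e, Sprr2i and Sprr2k, which were occupied in no library.

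**Figure D4:**
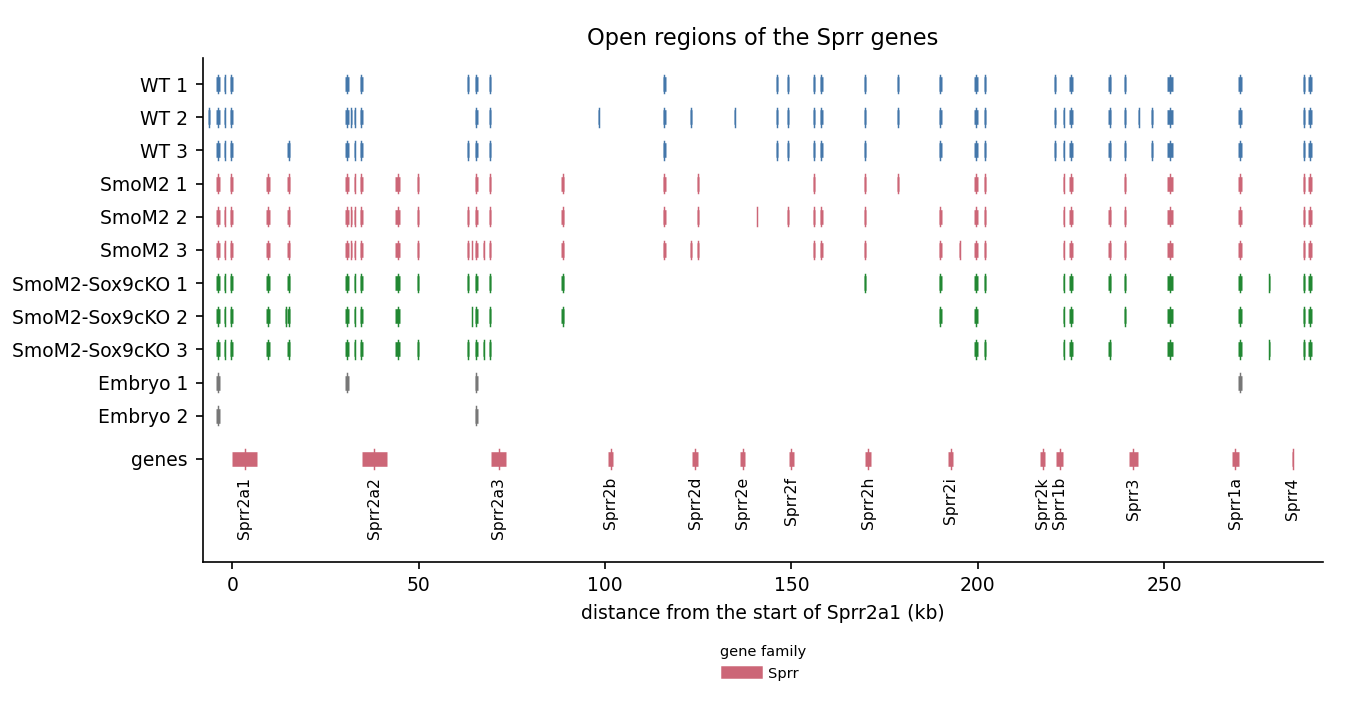
Occupied regions around the Sprr genes in each library (rows) by distance from the start of Sprr2a1 (kb), with gene bodies in the lowest row. SmoM2-Sox9cKO rows hold 1, 0 and 0 regions from about Sprr2d to Sprr2h, while regions at Sprr2a1 and Sprr2a2 8.94 and 8.92 kb after each start are seen in the SmoM2 and SmoM2-Sox9cKO rows only.

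Of the Sprr2a copies, which lie next to that stretch, Sprr2a1 and Sprr2a2 were called higher, but only against WT. Between SmoM2-Sox9cKO and SmoM2 neither was called (0.32 at Sprr2a1, adjusted p = 0.384). Sprr2a1 had 3, 4 and 4 occupied regions in WT, 4, 5 and 6 in SmoM2, and 6 in each SmoM2-Sox9cKO library. It rose by 0.59 ± 0.13 from WT to SmoM2-Sox9cKO (adjusted p = 0.0286). Sprr2a2 had 2, 4 and 3, then 5, 6 and 6, then 5, 4 and 5, and rose by 0.73 ± 0.18 from WT to SmoM2 (adjusted p = 0.0322). WT and SmoM2 did not overlap at Sprr2a2, and WT and SmoM2-Sox9cKO shared the value 4. Each of the Sprr2a1 and Sprr2a2 calls passed in 12 of 20 alternatives. Sprr2a2 lost its call without WT replicate 1 or 3 or any single SmoM2 library (adjusted p from 0.0553 to 0.0991). Sprr2a1 lost its call without any single WT library or without SmoM2-Sox9cKO replicate 2 or 3 (0.0572 to 0.0849).

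A pair of the regions behind these values sat at matching places in the copies. chr3:92224776-92225973 began 8.94 kb after the start of Sprr2a1 and chr3:92259571-92260793 began 8.92 kb after that of Sprr2a2. Each was occupied in 0 of 3 WT, 3 of 3 SmoM2 and 3 of 3 SmoM2-Sox9cKO libraries, and in neither Embryo library. In SmoM2 they stood at percentiles 86.1 to 87.6 and 80.6 to 92.2 of their lists. Upstream of the start, chr3:92211324-92212496 at Sprr2a1, chr3:92246057-92247095 at Sprr2a2 and chr3:92280830-92281879 at Sprr2a3 were occupied in all 9 adult libraries, and the promoters of Sprr2a1, Sprr2a2 and Sprr2a3 were also occupied in all 9. Since the copies are near-identical, reads could align to either, and the part of this in the matching pattern was not tested. Sprr2a3 had 3, 2 and 3, then 2, 3 and 5, then 3, 3 and 4, with changes from 0.09 to 0.22, none past the threshold.

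Of the other Sprr genes, only Sprr4 was called. It had 3 occupied regions in each WT library, 4 in each SmoM2 library and 5, 4 and 5 in SmoM2-Sox9cKO, a rise of 0.49 ± 0.13 against WT (adjusted p = 0.0495). The call of Sprr4 passed in only 5 of 20 alternatives and was lost when any of the 9 adult libraries was left out. A region 14974 bp before Sprr4, chr3:92515467-92515856, was seen in 0 WT, 3 SmoM2 and 3 SmoM2-Sox9cKO libraries. Sprr3, abundant in squamous epithelium of the esophagus, had 3, 5 and 4, then 2, 3 and 3, then 3, 2 and 2 occupied regions, with a change of -0.62 in SmoM2 (adjusted p = 0.0718) and -0.72 in SmoM2-Sox9cKO (0.0541), both against WT. Sprr1b had 2, 3 and 3 in WT and 2 in every library of the other adult groups (-0.45 in SmoM2, adjusted p = 0.0751). A region of Sprr1b 66 bp beyond its 3′ end, chr3:92436243-92436742, was occupied in 3 of 3 WT libraries and 0 of 6 others. Sprr1a had a single region, over its promoter, in all 9 adult libraries and Embryo 1. Sprr2i had 3 in each WT library, 2, 3 and 4 in SmoM2 and 3, 2 and 2 in SmoM2-Sox9cKO. Sprr2b had 0, 1 and 0, then 1 in each SmoM2 library, then 1, 1 and 0. Sprr2e also had at most 1 region per library and Sprr2k none, so these 3 were not tested.

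Lor, which encodes loricrin, the main protein of the envelope in epidermis, lost regions in SmoM2. It had 4 in each WT library, 2, 2 and 3 in SmoM2 and 3 in each SmoM2-Sox9cKO library, so neither SmoM2 group reached the WT value. The change was -0.81 ± 0.13 in SmoM2 (adjusted p = 0.0064) and it passed in 19 of 20 alternatives, missing only with lists of equal length (0.0563). Against WT, SmoM2-Sox9cKO differed by -0.42 (adjusted p = 0.0954), and against SmoM2 by 0.38 (0.307). The region chr3:92069532-92070396, 9875 bp beyond the 3′ end of Lor, was occupied in 3 of 3 WT libraries and in 0 of 3 of both SmoM2 groups. It stood between percentiles 56.7 and 65.4 in the WT lists. The Lor promoter, which has TGAGTCA 48 bases before the start, was occupied in no library.

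None of the other tested envelope genes passed. Ivl, which encodes involucrin, an early envelope scaffold, had 3, 4 and 4, then 4, 4 and 5, then 5, 4 and 5 occupied regions (0.09 in SmoM2 and 0.25 in SmoM2-Sox9cKO against WT, adjusted p = 0.586 and 0.284). Its promoter was occupied in all 9 adult libraries and Embryo 1. Crct1, a cysteine-rich protein, had 3, 4 and 4, then 4, 4 and 3, then 2, 2 and 3 (-0.63 in SmoM2-Sox9cKO against WT, adjusted p = 0.115). Prr9, Lelp1 and Smcp had adjusted p from 0.384 to 0.839 over the 3 comparisons, and 2310050C09Rik had 1 region in every adult library. Kprp, a keratinocyte proline-rich protein, had 1 region in all WT and SmoM2 libraries and in 1 of 3 SmoM2-Sox9cKO libraries.

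The Lce genes, late markers of cornification in skin, had 32 regions nearest to them, of which 15 to 29 were occupied in an adult library. Of 21 members, 8 were tested and 0 were called in any comparison by limma, which with 0.401% to 5.73% of all loci called in a direction is near the background. None of these 8 had an unadjusted p under 0.05, where 4.92% to 14.1% of all loci did in a direction. Lce1b, Lce1i and Lce3d had 1 region in every adult library, and Lce1a1 had 1, 1 and 1, then 0, 1 and 1, then 0, 0 and 1. Lce6a had 0 in each WT library, 1 in each SmoM2 library and 1, 1 and 0 in SmoM2-Sox9cKO. Lce3c had 1 in each WT library, then 0, 1 and 2, then 0 in each, and Lce3e had 1, 0 and 1, then 1 in each, then 0 in each, all too low to be tested. Lce1m had 2 in each WT library, then 2, 3 and 5, then 3 in each. Lce3a, the locus with the most, had 3, 6 and 4, then 4, 4 and 6, then 5, 4 and 3. Of 20 Lce promoters, only that of Lce3c, under chr3:92943935-92944681, was ever occupied, in 3 of 3 WT, 2 of 3 SmoM2 and 0 of 3 SmoM2-Sox9cKO libraries. A region 9986 bp beyond Lce3e, chr3:92978267-92980618, was occupied in 2, 3 and 0 libraries, with percentiles of 38.3 to 85.8 in SmoM2. A region 12366 bp before Lce1m, chr3:93031427-93033083, had the pattern 0, 3 and 3, and so had chr3:93173573-93175468, 21805 bp before Flg2.

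By limma, 0 of the 6 tested fused S100 genes were called in any comparison, near the 0.401% to 5.73% of all loci called in a direction. At an unadjusted p under 0.05, 1 was higher in SmoM2 against WT (10.4% of all loci), 2 in SmoM2-Sox9cKO against SmoM2 (6.72%) and 2 in SmoM2-Sox9cKO against WT (10%), and 0 were lower. Their median change was -0.12, 0.28 and 0.41 in these comparisons, where that of all loci was -0.12, 0.06 and -0.06. Flg2, a filaggrin relative, had 2, 4 and 2 occupied regions in WT, 3, 1 and 2 in SmoM2 and 4, 5 and 4 in SmoM2-Sox9cKO. SmoM2-Sox9cKO exceeded SmoM2 without overlap, by 1.09 ± 0.31, but the change did not pass (adjusted p = 0.205). Tchh, a structural protein of hair follicles and tongue papillae, had 2, 1 and 1, then 1, 1 and 2, then 2, 3 and 3 (0.88 against SmoM2, adjusted p = 0.291). Crnn, which encodes cornulin, a protein of esophageal squamous cells, had 4, 6 and 5, then 4, 5 and 6, then 8, 5 and 4, and its promoter was occupied in all 9 adult libraries. Rptn had 3, 4 and 6, then 3, 2 and 5, then 4, 4 and 4, and Hrnr 3, 2 and 4, then 5, 5 and 4, then 3, 4 and 4. Flg itself, which encodes filaggrin, had at most 1 region in an adult library, and its promoter was occupied in none of the 11. Tchhl1 had 2, 2 and 3, then 4, 3 and 6, then 5, 6 and 3 (0.78 in SmoM2-Sox9cKO against WT, adjusted p = 0.103).

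Unusually wide regions lay inside 4 of these genes and S100a7l2. Of the regions of the complex, 5 of 223 (2.24%) were at least 3 kb wide, compared with 0.235% of all regions. At Flg2 (chr3:93204065-93216302, 12238 bp) intervals covered 0, 2 and 0 kb in WT, 3.99, 0 and 0 kb in SmoM2, 4.42, 5.99 and 8.88 kb in SmoM2-Sox9cKO and 7.5 and 9.98 kb in Embryo. SmoM2-Sox9cKO thus lay above all WT and SmoM2 libraries there, though without a test. At Hrnr (chr3:93324325-93330813) SmoM2-Sox9cKO covered 0.608, 4.08 and 2.96 kb and Embryo 3.66 and 4.75 kb, against at most 1.31 kb in WT and SmoM2. At Flg (chr3:93284840-93291749) Embryo covered 3.13 and 6.38 kb, SmoM2 1 4.63 kb and the other adult libraries at most 1.8 kb. Tchh went the other way in Embryo, with 0.767 and 0.934 kb against 2.45 to 4.01 kb in the adult libraries. The proteins of Flg2, Flg, Hrnr and Tchh are built of tandem repeats, so reads can align to several places in their exons. The part of this in the widths was not tested.

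**Figure D5:**
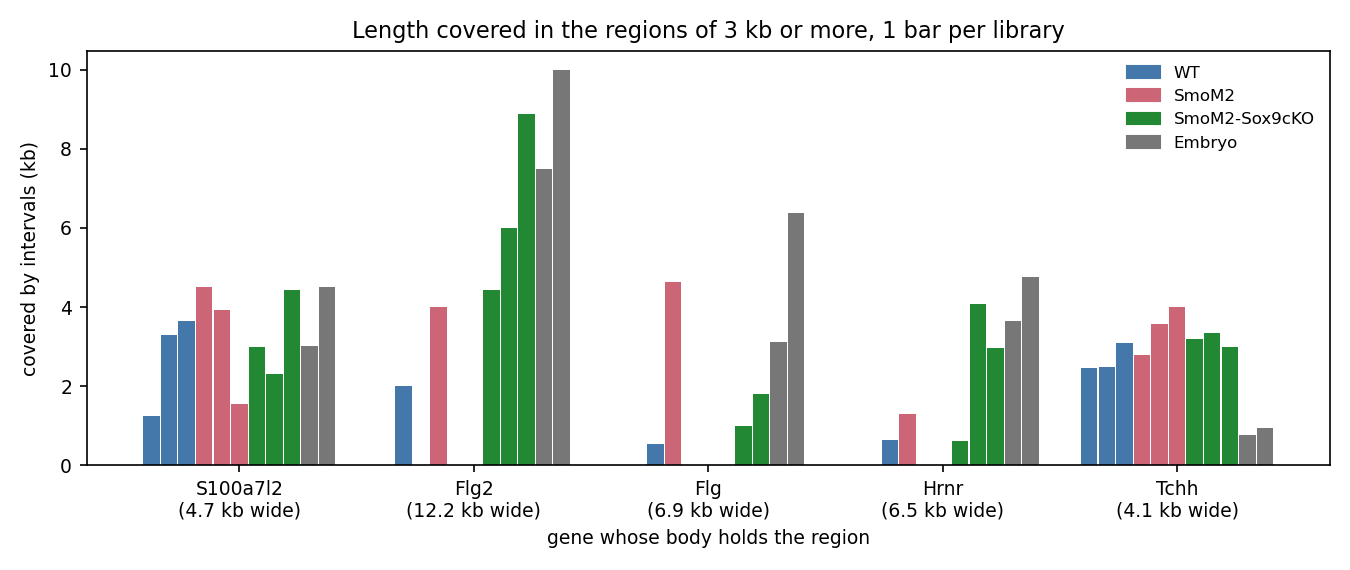
Length covered by intervals (kb, vertical axis) in the 5 regions of at least 3 kb, with 1 bar per library in the order WT, SmoM2, SmoM2-Sox9cKO, Embryo and no bar where the value is 0. At Flg2 the 3 SmoM2-Sox9cKO and 2 Embryo bars, from 4.42 to 9.98 kb, exceed all others, the highest of which is 3.99 kb.

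Of the 14 S100 genes, 11 were tested and 0 were called in any comparison by limma, near the 0.401% to 5.73% of all loci called in a direction. At an unadjusted p under 0.05, 1 was higher and 1 lower in SmoM2 against WT (10.4% and 14.1% of all loci). In SmoM2-Sox9cKO 1 was lower against SmoM2 (4.92%) and 2 were lower against WT (11.3%). S100a8 had 1, 2 and 2 occupied regions in WT, 3 in each SmoM2 library and 2 in each SmoM2-Sox9cKO library. SmoM2 was above both other groups without overlap, but its change against WT, 0.61 ± 0.17, did not pass (adjusted p = 0.057), nor did that of SmoM2-Sox9cKO against SmoM2 (-0.42, 0.383). The region chr3:90679960-90680935, 9926 bp beyond S100a8, was occupied in 1, 3 and 0 libraries. S100a9 had 2, 3 and 3, then 2, 3 and 3, then 2, 1 and 2 (-0.63 in SmoM2-Sox9cKO against WT, adjusted p = 0.147), and its promoter was occupied in 2, 3 and 1 libraries. Both genes are also highly expressed in neutrophils. The summed regions of 5 neutrophil markers, which include both genes, were 4 to 6 in WT, 8 in SmoM2 and 6 in SmoM2-Sox9cKO. Without both genes, Mpo was the only one of the list above 0. It rose in both SmoM2 groups against WT, from 1 in each WT library to 2 or 3 (adjusted p = 0.0424 and 0.0411, each passing in 11 of 20 alternatives), whereas Elane and Ly6g were at 0 in all 3 groups. Mpo was thus 1 of 3 tested neutrophil markers to rise, where 5.18% and 3.96% of all loci did. The Mpo calls were both lost without any single WT library, SmoM2 replicate 2 or SmoM2-Sox9cKO replicate 3, that of SmoM2 also without SmoM2 replicate 1 and that of SmoM2-Sox9cKO also without its replicate 2 (adjusted p from 0.0541 to 0.128). The sort was set on EpCAM, an epithelial protein, at high level in both SmoM2 groups and low level in WT, and the part of neutrophils in the S100a8 values was not tested.

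None of the remaining S100 genes passed. S100a1 and S100a4 had 1 region in every adult library. S100a6, calcyclin, had 5, 6 and 6, then 5, 5 and 5, then 5, 5 and 6. S100a7a had 4 in each WT library, then 3, 3 and 5, then 5, 4 and 3. S100a14 had 2, 3 and 2, then 2, 2 and 2, then 2, 1 and 1, with -0.71 in SmoM2-Sox9cKO against WT (adjusted p = 0.0619). S100a11, at the far border, had the most of all members, with 7, 8 and 8, then 8, 8 and 8, then 9, 9 and 8. Its counts include regions past the end of the complex that lie within 100 kb of the gene. A region in the body of S100a16, chr3:90539076-90539560, was occupied in 0, 3 and 2 libraries, while that gene's promoter was occupied in all 11. S100a16 as a locus had 3 in each WT library, then 4, 5 and 4, then 3, 4 and 4. Pglyrp4 and Pglyrp3 encode secreted proteins that bind bacterial peptidoglycan. Pglyrp4 had 5, 8 and 5, then 1, 5 and 4, then 5, 1 and 2 (-1.28 in SmoM2-Sox9cKO against WT, adjusted p = 0.21), and Pglyrp3 3, 3 and 4, then 5, 6 and 6, then 6, 6 and 3 (0.57 in SmoM2 against WT, adjusted p = 0.144).

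Tdpoz8, a BTB domain gene between Lce1m and Crnn, had 3, 3 and 5 occupied regions in WT, 3, 1 and 1 in SmoM2, and 1, 1 and 0 in SmoM2-Sox9cKO. SmoM2-Sox9cKO lay below WT without overlap, with a change of -2.03 ± 0.46 (adjusted p = 0.0324). The Tdpoz8 call passed in 12 of 18 alternatives and was lost without any single WT library or without SmoM2-Sox9cKO replicate 3 (0.0578 to 0.0916). The regions chr3:93096495-93096816 and chr3:93103265-93103949, 20990 and 27760 bp beyond its 3′ end, were occupied in 3 of 3 WT libraries and in 0 of 6 of the others.

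Counted by region, 14 of 223 had an interval in every SmoM2 library and in no WT library (6.28%, against 6.91% of all regions), and 8 in the reverse case (3.59% against 3.11%). Between SmoM2-Sox9cKO and SmoM2, 0 were gained (0.678% of all regions were) and 5 were lost (2.24% against 1.34%), of which 3 were at Sprr2d and Sprr2f and the others near S100a8 and Lce3e. Between SmoM2-Sox9cKO and WT, 7 were gained (3.14% against 4.26%) and 13 lost (5.83% against 2.69%), and 5 of these 13 were at Sprr2d and Sprr2f. No p-value is attached to these counts.

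Most of these regions lay between genes, and those not yet described were as follows. Gained from WT to SmoM2, with 0 WT and 3 SmoM2 libraries, were chr3:91991809-91992856 and chr3:92048802-92049360 near Pglyrp3, seen in 2 and 3 SmoM2-Sox9cKO libraries. The same held for chr3:92265384-92265957 at Sprr2a2, chr3:92304060-92304824 before Sprr2b, chr3:92597090-92597745 at Lce6a and chr3:93489272-93489640 at Tchhl1, each seen in 2 SmoM2-Sox9cKO libraries. It also held for chr3:93358330-93358776 near Hrnr, seen in 1 of them. A region at the 3′ end of Sprr2d, chr3:92340621-92341065, was occupied in the 3 SmoM2 libraries alone. Lost from WT to SmoM2 were chr3:90621806-90622635 beyond S100a6 (1 SmoM2-Sox9cKO library), chr3:92361773-92362164 before Sprr2f (0), and chr3:93176607-93177031 and chr3:93240229-93240855 around Flg2 (2 and 1). Lost from SmoM2 to SmoM2-Sox9cKO was chr3:92371574-92372279 beyond Sprr2f, present in all 3 libraries of WT and of SmoM2. Seen in 3 WT and 2 SmoM2 libraries but in no SmoM2-Sox9cKO library were chr3:90630887-90631464 near S100a6, chr3:90725361-90726054 near Pglyrp4, chr3:92047643-92048001 near Pglyrp3 and chr3:92373429-92374259 beyond Sprr2f. The region near S100a6 had a neighbor with the opposite pattern, chr3:90632229-90632809, in 0 WT, 1 SmoM2 and 3 SmoM2-Sox9cKO libraries.

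Leaving out SmoM2 replicate 1 raised the losses from SmoM2 to SmoM2-Sox9cKO to 13, and leaving out SmoM2-Sox9cKO replicate 1 or 3 raised them to 10 and 8. The gains between these groups became 2 without any single SmoM2-Sox9cKO library, 3 without SmoM2 replicate 1 and 4 without SmoM2 replicate 3. The gains from WT to SmoM2-Sox9cKO became 11 without SmoM2-Sox9cKO replicate 2 or WT replicate 3, and 14 without SmoM2-Sox9cKO replicate 3. In windows of 500 kb, 6 of the 7 that touch the complex were tested. Only the first, which holds S100a1 to Pglyrp4, was called, in SmoM2-Sox9cKO against WT (-0.34 ± 0.10, adjusted p = 0.0285, where 23.8% of all windows were called). It had 31, 38 and 34 occupied regions in WT and 32, 25 and 28 in SmoM2-Sox9cKO, values that overlap, and it lost the call without any single WT library or without SmoM2-Sox9cKO replicate 2. No window was called in SmoM2 against WT (32.9% of all windows) or SmoM2-Sox9cKO against SmoM2 (4.03%).

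The promoters of the complex were less often open than those of other genes. Of 62 members with a promoter, 15 to 20 were occupied in an adult library (24.2% to 32.3%), compared with 58.3% to 61.9% of 17273 genes. The Embryo libraries had 5 and 4 (8.06% and 6.45%, against 52.8% and 39.9%). S100a3, S100a16 and S100a11 were open at the promoter in all 11 libraries. S100a1, S100a13, S100a6, Sprr2a1, Sprr2a2, Sprr2a3, Sprr1a, Ivl and Crnn were open there in all 9 adult libraries.

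In Embryo, esophagus before it stratifies into a keratinizing epithelium, most of the complex was without intervals. The libraries occupied 28 and 20 regions, or 12.8 ± 2 per 10000 (n = 2), -6.33 from WT (two-sided exact permutation p = 0.2, the smallest this test gives for 2 against 3). Both Embryo lists hold fewer intervals than any adult list. With all lists reduced to their 14255 strongest intervals, the difference was -3.62 (exact permutation p = 0.4), closer to 0 and of the same sign. The 34 regions occupied in either library included 21 that were occupied in all 9 adult libraries and 6 in none. Of those 6, 3 were nearest to Flg2 or Flg, and chr3:93283274-93284674 in Flg was the only one in both Embryo libraries. Regions of at least 3 kb made up 57.2% and 72.4% of the bases covered in the complex, compared with 3.93% to 20.9% in adult libraries. Measured in covered bases, the share of the complex was higher in Embryo than in WT, at 20.5 and 44.6 per 10000 against 18.1 to 18.3. All 11 libraries occupied 10 regions (4.48%, against 8.45% of all regions). These were chr3:90536832-90538766 and chr3:93520120-93521092 over the starts of S100a16 and S100a11, chr3:90585408-90588354 at S100a3, chr3:90614502-90615651 at S100a6, chr3:93505979-93507609 near S100a11, the wide regions of S100a7l2 and Tchh, regions 3339 and 3425 bp before Sprr2a1 and Sprr2a3, and chr3:92552896-92555221, 15678 bp beyond the 3′ end of Ivl.

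Outside the complex, 35 genes of squamous differentiation and 36 regulators of it were followed in the same fit. Of the 34 tested differentiation genes, Krt6b, a keratin of wounded and hyperproliferative epithelium, rose in SmoM2 from 1 region in each WT library to 2 in each SmoM2 library (0.61 ± 0.12, adjusted p = 0.012). Krt6b also had 2 in each SmoM2-Sox9cKO library (0.68 against WT, adjusted p = 0.00955). Krt4, which marks suprabasal cells of the esophagus, decreased in SmoM2 from 4 in each WT library to 2, 3 and 3 (-0.65 ± 0.16, adjusted p = 0.0325). The other 32 did not pass in SmoM2 against WT, so 1 of 34 rose and 1 of 34 fell, compared with 5.18% and 5.73% of all loci. Between SmoM2-Sox9cKO and SmoM2 0 of 34 passed (0.401% higher and 0.433% lower among all loci). The Krt4 call passed in 10 of 20 alternatives and was lost without any single WT library or SmoM2 replicate 1 or 3 (adjusted p from 0.0656 to 0.098). Among the regulators, the AP-1 gene Fosl2 rose in SmoM2-Sox9cKO against WT (0.39 ± 0.09, adjusted p = 0.036), where 3.96% of all loci did. The Fosl2 call passed in only 6 of 20 alternatives and was lost when any of the 9 adult libraries other than SmoM2-Sox9cKO replicate 1 was left out (adjusted p from 0.0517 to 0.111). Beside all comparisons with WT, 5 endothelial marker loci summed to 21 to 24 occupied regions in WT, 31 to 38 in SmoM2 and 33 to 37 in SmoM2-Sox9cKO. Emcn, Cdh5 and Pecam1 of that list rose in both groups, and Tek in SmoM2-Sox9cKO. These were 3 of 5 tested in SmoM2 (5.18% of all loci) and 4 of 5 in SmoM2-Sox9cKO (3.96%). With a reach of 20 kb, Cdh5 changed by -0.12 in SmoM2 and -0.31 in SmoM2-Sox9cKO. With −log10 q of at least 5 it missed in SmoM2-Sox9cKO (adjusted p = 0.707). Ptprc, a pan-leukocyte gene, was at 0 in WT and rose in SmoM2 (adjusted p = 0.0077), 1 of 3 tested leukocyte markers against 5.18% of all loci. Among fibroblast markers, Twist2 rose in both SmoM2 groups against WT (1 of 5 tested, against 5.18% and 3.96% of all loci), and Dpt fell in SmoM2 (1 of 5, against 5.73%). Of the muscle markers, Acta2 fell in both groups (1 of 3 tested, against 5.73% and 3.39%). In all of the 20 alternatives Twist2 passed, whereas Pecam1 in SmoM2 passed in 5 and was lost when any single adult library was left out. Tek passed in 6 of 20 and was lost without any single one but WT replicate 2, and Dpt in 5 of 19 and was lost without any single one but SmoM2 replicate 1. Acta2 was lost in both groups without WT replicate 1 or 2, in SmoM2 also without its replicate 2 or 3 and in SmoM2-Sox9cKO without its replicate 1 or 2. Emcn was lost in SmoM2 without WT replicate 2 or 3 or SmoM2 replicate 3, and in SmoM2-Sox9cKO without its replicate 2. It was also lost in both groups with −log10 q of at least 5 (adjusted p = 0.393 in SmoM2 and 0.157 in SmoM2-Sox9cKO) and in covered base pairs (0.216 and 0.413). With Y-linked intervals as a covariate it was lost in SmoM2 (0.0771). The 5 muscle markers summed to 9 to 12, 6 to 9 and 5 to 9 regions, with Myf5 at 0 in all 3 groups, and the 6 fibroblast markers to 19 to 20, 20 to 21 and 22 to 25. The 6 leukocyte markers gave 11 to 14, 15 to 19 and 12 to 16, with Cd3g at 0 throughout, the 6 myeloid markers 9 to 12, 11 and 10 to 12, with Lyz2 at 0, and the 5 columnar markers 9 to 10, 9 to 15 and 11 to 15. The 7 keratinocyte markers gave 64 to 69, 67 to 89 and 76 to 80, with 0 called. The part of other cell types in the results was not tested. Between SmoM2-Sox9cKO and SmoM2, no tested gene of the marker lists was called.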

How the data were processed

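The deposited files are peak lists of 11 ATAC-seq libraries, 1 per library, with the 9 adult libraries in groups of 3 and 2 Embryo libraries. Per the submitters' processing notes, Trimmomatic, Bowtie2, Picard, MACS2 and deepTools were used, with versions not given in the sources used here. The authors' lists give for each interval a display score, a fold enrichment (ratio) over background, a −log10 p-value, a −log10 q-value and the position of the summit. These deposited values are the authors' own and were used only to rank or filter intervals within a list. Lists differ in length and depth is unknown, so the counting error behind an interval is unknown too.

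Intervals on chromosomes 1 to 19 and X were merged over all libraries at an overlap of 1 bp. The nearest gene body within 100 kb gave a region its locus. Occupied regions per locus were converted to log2((regions + 0.5)/(total + 1) × 100000) and fitted with limma 3.58.1 (R 4.3.3, trend on) over the 3 adult groups together, without Embryo, for loci with a mean of at least 1. Benjamini-Hochberg adjustment covered all tested loci, and the threshold was 0.05. If a locus has equal numbers throughout a group, its spread reflects the library totals alone. No fold is given where a group is at 0. Single values were compared by exact permutation. Tables were handled in Python 3.11.15 with pandas 2.3.3 and scipy 1.17.1. The fit was tested on simulated data with changes planted only at loci above the lowest counts. Recovery at a locus such as Sprr2d (mean of 1.33 regions in WT) was therefore not covered. Values in every library are given for members called in an adult comparison, members holding a region gained or lost between adult groups, both border genes and a set list of well-known members. Others are given by counts or as examples, and genes of the other lists are named where called, except 1 result that is not reported here. The Sprr2d to Sprr2h stretch was chosen after its values were seen. The members and lists were chosen with earlier results of these data known. Alternatives changed the interval cutoff, list length, scaling, filter, pseudocount, reach, window size, overlap, libraries and covariates. Protein identity and sequences of open regions were not analysed here.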

Additional observations from a re-analysis of the deposited data

How the results depend on the processing

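Calls, named loci, windows, gained and lost regions and the share of the complex were recomputed under other settings; promoter occupancy, motif shares and untested loci were not. Y-linked intervals as a covariate, leaving out regions of at least 3 kb, the Sprr2 stretch, and the settings for Ivl and genes outside the complex were chosen after seeing the data. The planned term for Y-chromosome intervals could not be fitted because all 11 libraries have such intervals, and the planned protein comparison was not run. Requiring an overlap of 50% could change no value, because every interval lies wholly within its merged region, so that setting checks nothing. Where values moved, the cause was not tested. In covered base pairs, the difference corresponding to regions of the complex per 10000 occupied regions, SmoM2 against WT, was 0.773, and it was 0.5 in SmoM2-Sox9cKO and 14.3 in Embryo against WT. Each of these was opposite in sign to the difference by regions. Members called higher numbered 4 in SmoM2 and 5 in SmoM2-Sox9cKO against WT, with 7 lower in the latter. In that unit 1 window was lower in SmoM2-Sox9cKO against SmoM2 and 1 higher against WT. Without scaling, the plain count of occupied regions in the complex, which is not a share, was 7.67 higher in SmoM2 than in WT. In that setting 1 member was lower in SmoM2, 1 higher and 2 lower in SmoM2-Sox9cKO against WT, with 0 windows lower. With lists of equal length, 1 member was lower in SmoM2 against WT, 0 in SmoM2-Sox9cKO against SmoM2 and 2 in SmoM2-Sox9cKO against WT, and between the SmoM2 groups 1 region was gained and 2 were lost. With −log10 q of at least 5, 0 members were lower in SmoM2-Sox9cKO against SmoM2 and 0 higher against WT, 1 window was lower in SmoM2 against WT, 4 regions were lost there, and 1 was gained and 3 lost between the SmoM2 groups. Without the filter, 3 members were higher in SmoM2 against WT. With the Y-linked covariate, 2 were higher and 1 lower there, and 0 windows were lower in SmoM2-Sox9cKO against WT. With only the 6 libraries compared, 1 member was lower in SmoM2 and 1 higher in SmoM2-Sox9cKO against WT. A pseudocount of 1 gave 1 higher, a pseudocount of 0.25 gave 2 lower, and a reach of 20 kb gave 1 higher and 2 lower, all in SmoM2-Sox9cKO against WT. Windows of 1 Mb gave 1 lower in SmoM2 and 0 in SmoM2-Sox9cKO against WT, and windows of 250 kb gave 2 in the latter. When 2 of 3 libraries sufficed, 13 regions were lost in SmoM2 against WT, 6 gained and 14 lost between the SmoM2 groups, and 21 gained and 23 lost in SmoM2-Sox9cKO against WT. The change of Sprr1b in SmoM2-Sox9cKO against WT was 0.20 with −log10 q of at least 5 and 0.00 in covered base pairs. That of Ivl in SmoM2 against WT was -0.00 with that −log10 q, -0.01 in covered base pairs and -0.12 with a reach of 20 kb, and in SmoM2-Sox9cKO -0.06 with that reach. With it, Cdh5 changed by -0.12 in SmoM2 and -0.31 in SmoM2-Sox9cKO against WT.

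Same-numbered libraries correlated between -0.068 and 0.08 in their deviations from the group means, so the numbers were not taken as pairs. With the replicate number as a block, 1 member in place of 2 was higher in SmoM2-Sox9cKO against WT (Sprr4 was lost, adjusted p = 0.0881), and no other count of calls moved by over 1.5 times. Outside the complex, Fosl2, Krt4, Mpo and, in SmoM2, Pecam1 also missed the threshold under the block (adjusted p from 0.0604 to 0.0993).

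Leaving out 1 library at a time, the share differed by -1.06 to 0.227 (the latter without SmoM2 replicate 1) in SmoM2 against WT, -1.94 to -0.647 in SmoM2-Sox9cKO against SmoM2, -1.99 to -1.51 in SmoM2-Sox9cKO against WT and -7.74 to -4.91 in Embryo against WT. Members called higher and lower ranged over 0 to 2 and 1 to 2 in SmoM2 against WT, 0 and 1 to 2 in SmoM2-Sox9cKO against SmoM2, and 0 to 2 and 2 to 5 in SmoM2-Sox9cKO against WT. Windows lower ranged over 0 to 1 and 0 to 2 against WT. Regions gained and lost ranged over 14 to 16 and 8 to 12, 0 to 4 and 5 to 13, and 8 to 14 and 13 to 19, in that order of comparisons.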
